A study of Homo sapiens with 9 samples.

Results

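The baseline described here is that of unmodified Z138, an established cell line from mantle cell lymphoma, a cancer of mature B cells. Its members were the 3 libraries whose genotype label is WT, of 9 libraries in the series. The other 6, 3 with the transcription factor gene SOX11 knocked out and 3 with SOX11 returned to such cells, were used only to say whether a gene absent here was counted elsewhere. All wild-type cells were labelled as a lymphoblast line of lymphoid tissue and grew in RPMI-1640 medium with 10% fetal bovine serum, L-glutamine and penicillin-streptomycin. No other agent and no engineered allele are named for them. The labels name them batches 1, 2 and 3, so replicate and batch are the same thing within this group. Nothing in the labels says that the replicates were separate cultures, so each SD below measures the spread between these libraries, which may be technical. With 3 libraries of 1 line and no second group, every value is a description and no test was made.

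Mantle cell lymphoma arises from B cells that resemble those of the mantle zone, the ring of mostly naive cells around a germinal centre. Its defining lesion is a translocation that places the cyclin D1 gene CCND1 next to the immunoglobulin heavy chain locus, and cyclin D1, which normal B cells hardly make, then drives the cells from G1 into S phase with CDK4 or CDK6. Most conventional cases also express SOX11, a transcription factor of the developing nervous system that is not used by normal B cells. B cells are recognised by the transcription factor PAX5, which keeps them in the lineage, and by the signalling pair CD79A and CD79B, which carry the surface immunoglobulin signal into the cell.

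Levels are given on 3 scales. A normalized count is a read count after scaling between libraries, recovered from the deposited values. TPM is that count divided by the length of the gene's main transcript and scaled to the same total in each library. Levels of different genes are compared in TPM, and an order by counts is an order of reads, not of transcript levels. The 3 libraries held 34975900, 35797000 and 34809100 normalized counts, and the estimated depth was 40724816, 34056647 and 34830587 reads. A gene with no read in one of them could still be present at up to 3 reads, which is 0.0737, 0.0881 and 0.0861 counts per 1000000 (CPM), the scale that also serves for the spread of single genes. This floor covers counting error only, since the reads carry no molecular identifiers. Of 16586 genes, 11007 reached 1 CPM in all 3 libraries, among them 10662 protein-coding genes. The median gene stood at 7.79 TPM, and 685 genes held 50% of all normalized counts.

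The 4 genes that mark the line were all measured, in the order CCND1, CD79A, PAX5 and SOX11. CCND1 stood at 1841, 1847 and 1697 TPM in replicates 1, 2 and 3 (1795 ± 84.8, SD, n = 3), rank 88 of 16461 genes with a length. CD79A stood at 428, 452 and 404 TPM (428 ± 23.7, SD, n = 3), rank 347. Both varied by less than 10% of their mean between libraries. PAX5 was measured at 67.5, 96.4 and 61.6 TPM (75.2 ± 18.7, SD, n = 3), with replicate 2 above the others. SOX11 was lower than these, at 26.9, 25.6 and 20.8 TPM (24.4 ± 3.25, SD, n = 3), rank 5101, and CCND1 was 74.1 ± 6.89 times its level per length (SD, n = 3). All 4 lay above the median gene in every library, and none went against the label of a mantle cell lymphoma line. The levels per length depend on the transcript chosen. With the union of all annotated exons, CCND1 stood at 2762, PAX5 at 119.8 and SOX11 at 42.2 TPM.

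The highest transcripts were mostly those of ribosomal proteins and the mitochondrial genome, with single genes of translation, cytoskeleton and glycolysis. The highest protein-coding gene per length was PTMA, which encodes prothymosin alpha, an acidic nuclear protein abundant in proliferating cells, at 12632, 11369.5 and 11744 TPM (11915 ± 648, SD, n = 3). RPL41, a protein of the large ribosomal subunit, followed at 9667 ± 465 TPM. Of the 25 highest genes, 15 encode ribosomal proteins and 4 are mitochondrially encoded. The other 6 were PTMA, the elongation factor EEF1A1 at 7978 ± 201 TPM, the invariant chain CD74 at 7037 ± 422, the tubulin TUBA1B at 6366 ± 277, the glycolytic enzyme GAPDH at 5926 ± 333 and the actin ACTB at 4823 ± 253 (SD, n = 3 each). CD74, which guides antigen-loading of major histocompatibility class II molecules, was the only one of the 25 that belongs to antigen-presenting cells, at rank 8. The 25 genes held 15%, 16.2% and 16.3% of all TPM (15.8% ± 0.723, SD, n = 3), and the 25 highest without length scaling held 10.3% of normalized counts.

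The 4 mitochondrially encoded genes were those of the 25 with the largest spread between libraries. MT-CO3, a subunit of cytochrome c oxidase, was measured at 7695, 9346 and 11137 TPM. MT-CO1 stood at 4901, 5712 and 7624 and MT-ATP6, a subunit of the ATP synthase, at 3702, 4712 and 6195 TPM. In each of these, and in MT-CO2, replicate 1 was lowest and replicate 3 highest. The 13 mitochondrial genes together took 1.51%, 1.84% and 2.46% of normalized counts, whereas the 82 cytosolic ribosomal protein genes took 9.55%, 10.6% and 9.85%. The 58 histone genes, whose transcripts mostly lack a poly(A) tail, took 0.0126%, 0.0181% and 0.0207%. The highest of them, H2BC12, stood at 102, 163 and 168 TPM, and the whole group was likewise lowest in replicate 1 and highest in replicate 3. The labels name a TruSeq RNA kit or a stranded total RNA kit that removes ribosomal RNA as the source of the libraries. The sources used here do not tie a kit to a replicate, and its part in these differences was not tested.

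**Figure D1:**
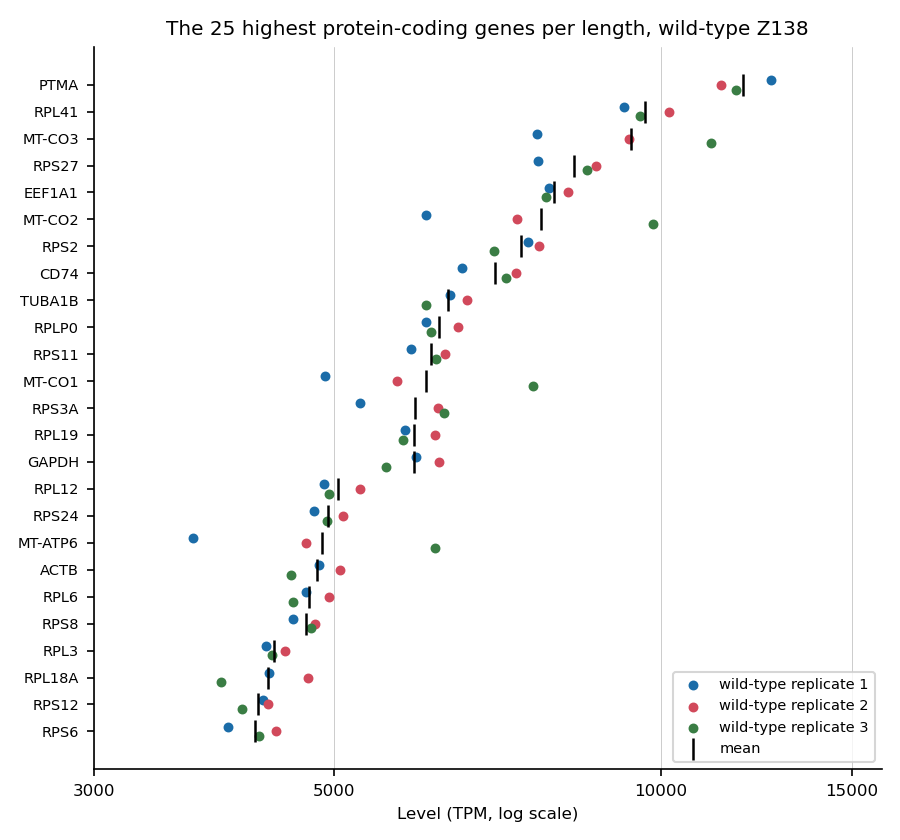
Levels of the 25 highest protein-coding genes in wild-type Z138, in TPM (log axis), with 1 point per library and the mean. PTMA leads at a mean of 11915 TPM, CD74 is the antigen presentation gene among them, and the mitochondrial genes are spread most, with replicate 3 highest.

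By reads, without scaling for length, the order changed, since longer transcripts give more reads. EEF1A1 led with 590438 normalized counts on average and took 1.68% of each library's total on average. CCND1 was the last of the 10 highest genes, with 128382, 136858 and 121217 normalized counts. Its neighbours above it were PTMA, GAPDH, TUBA1B, MT-CO1, ACTB, RPLP0, HNRNPA1 and EEF2, all genes that most cells express strongly. The 10 genes together held 5.80% ± 0.164 of normalized counts (SD, n = 3).

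The general B cell programme was present at levels well above the median gene. Of 18 surface and receptor genes, 16 reached 1 TPM and 15 reached 10 TPM in all 3 libraries, with a median of 40.6 TPM against 7.79 TPM for all genes. Of all genes with a length, 65.6% reached 1 TPM and 44.3% reached 10 TPM in all 3 libraries, and the counts of the lists are to be read against these shares. After CD74 and CD79A, the highest were MS4A1, which encodes the antibody target CD20, and CD79B. MS4A1 stood at 329.6, 338 and 407 TPM and CD79B at 292, 321 and 299 TPM. CD79A exceeded its partner CD79B 1.41-fold (± 0.0597, SD, n = 3) per length. The inhibitory receptor CD22 stood at 6.03, 4.05 and 6.88 TPM. At the bottom lay FCRL1 at 0.0966 TPM and CR2, the complement receptor CD21 of follicular B cells, at 0.0736 TPM on average.

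The transcription factors that build and hold B cell identity were measured in nearly full number. Of 23, 22 reached 1 TPM and 18 reached 10 TPM in all 3 libraries, and the median was 40.0464 TPM. TCF3, which encodes the E proteins E12 and E47 that open the B lineage, was highest at 488 ± 32.4 TPM. IKZF1 (Ikaros) stood at 134 ± 10.6, SPIB at 164 ± 14.6, the coactivator POU2AF1 at 67.1 ± 8.66 and EBF1, the partner of PAX5, at 32.3 ± 2.88 TPM (SD, n = 3 each). BACH2, which holds B cells back from the plasma cell fate, stood at 8.49 ± 2.30 TPM and BCL11A at 3.46 ± 0.744. The exception was MEF2C, with 1.93, 149 and 16.0 normalized counts, most of them in replicate 2. Its relative MEF2B stood at 82.7 ± 22.4 TPM.

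All 16 genes of B cell receptor signalling reached 1 TPM in all 3 libraries, and 13 reached 10 TPM. The kinases showed LYN at 104 ± 10.5, SYK at 72.8 ± 9.22 and BTK, the target of ibrutinib, at 124 ± 6.32 TPM. The adaptor BLNK stood at 81.9 ± 5.97 TPM and the phospholipase PLCG2 at 48.9 ± 5.73 TPM. Downstream, BCL10 and MALT1, which act together to turn on NF-kB, were lower. BCL10 stood at 23.9 ± 0.599 and MALT1 at 16.6 ± 2.34 TPM. The kinase PRKCB, which signals toward them, was the lowest of the 16 at 3.23 ± 0.430 TPM. The phosphatase PTPN6 had the largest spread of the 16, at 44.2, 145 and 90.0 TPM, with replicate 2 highest.

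**Figure D2:**
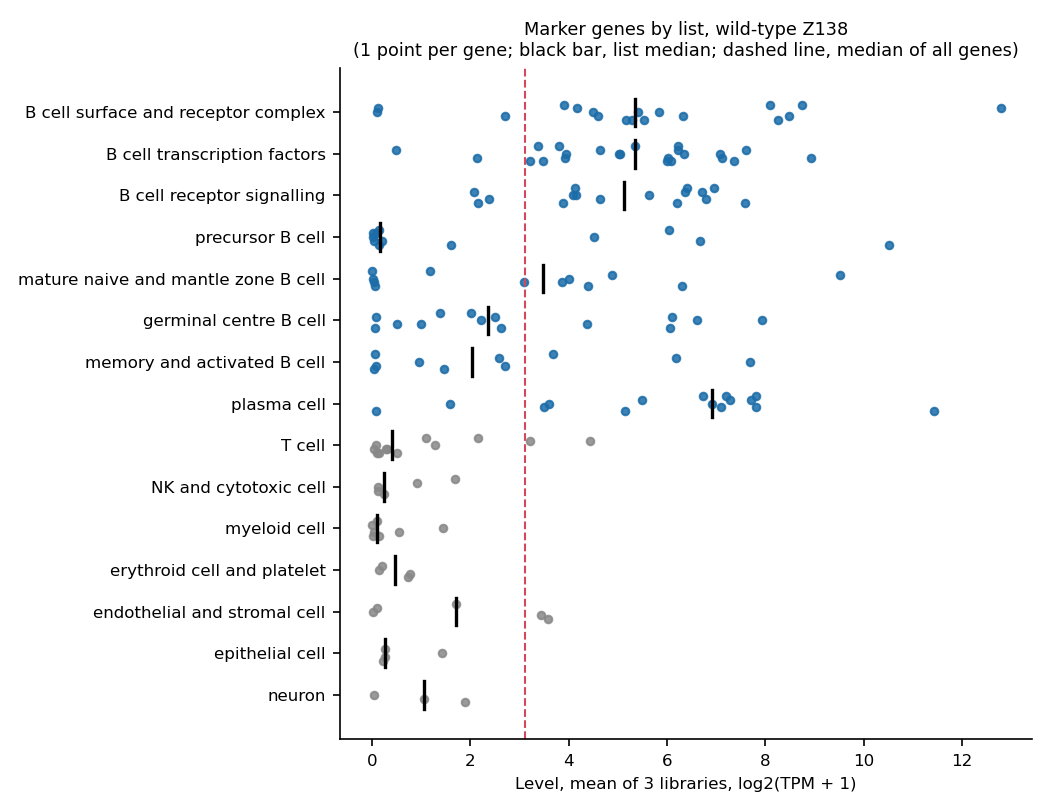
Levels of the members of each gene list in wild-type Z138, each point 1 gene at its mean log2(TPM + 1) over 3 libraries, with the list's median and the median of all genes (3.12). The medians of the surface, transcription factor, receptor signalling, naive and mantle zone, and plasma cell lists lie above that of all genes, and those of the precursor, germinal centre and memory lists and of all other lineages lie below it. The precursor and the naive and mantle zone lists change side when only genes at 1 CPM or more are kept.

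Genes of the stages of B cell life gave a mixed picture, in which no stage list was complete. Among 12 measured genes of precursor B cells, 5 reached 1 TPM in all 3 libraries and the median was 0.132 TPM. The highest was IGLL1, the lambda-5 part of the surrogate light chain, at 1718, 1478 and 1235 TPM. Its sequence resembles the lambda constant genes, with which it may share reads. VPREB3 stood at 112, 96.1 and 94.8 TPM and SOX4 at 64.8 ± 6.72 TPM. The machinery of receptor gene rearrangement was at or near the floor. RAG1 had 3.11, 1.52 and 3.58 normalized counts, RAG2 2.58, 0 and 0 and DNTT, which adds bases at the joints, 5.18, 0 and 0.998. VPREB1, the partner of IGLL1 in the surrogate light chain, had 0.865, 2.12 and 1.02 normalized counts.

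Of 12 measured genes of naive and mantle zone B cells, 7 reached 1 TPM in all 3 libraries, which is 58.3% against 65.6% of all genes. The median was 10.8 TPM, above that of all genes, but it lay below that of all genes when only genes at 1 CPM or more were kept (log2(TPM + 1) of 4.21 against 4.49). The chemokine receptor CXCR4, which draws cells to bone marrow and lymphoid stroma, led at 770.1, 717 and 710.1 TPM. CCR7, the receptor for entry into lymph nodes, stood at 66.3, 92.1 and 78.4 TPM. S1PR1, the receptor for exit from them, was measured at 20.1, 42.7 and 27.1 TPM, and FCER2 (CD23) at 16.4, 23.1 and 21.6 TPM. CXCR5, which leads B cells to follicles, was far lower at 1.31 ± 0.505 TPM. CD5, which most mantle cell lymphomas carry, had 0.863, 1.05 and 0 normalized counts and was under the 3-read floor in each library. CD200, which is usually low in mantle cell lymphoma, had 0, 0.560 and 3.76 normalized counts.

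Germinal centre genes ranged widely in level. Of 14 measured, 10 reached 1 TPM and 5 reached 10 TPM in all 3 libraries, shares near those of all genes, and the median was 4.21 TPM. BCL7A stood at 245 ± 46.9, the G protein GNA13 at 97.2 ± 6.02, CD38 at 68.5 ± 10.7, P2RY8 at 65.7 ± 4.57 and GCSAM at 19.8 ± 2.32 TPM (SD, n = 3 each). BCL6, the repressor that defines the germinal centre state, was near 1 TPM, at 0.750, 1.44 and 0.867. MME, which encodes CD10, was lower still at 0.0483, 0.0354 and 0.102 TPM.

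Of 10 memory and activation genes, 6 reached 1 TPM in all 3 libraries, close to the 65.6% of all genes. At 10 TPM the count was 2 (20%), against 44.3% of all genes, and the median was 3.41 TPM against 7.79 TPM. CD70 was highest at 207 ± 20.9 TPM, followed by TNFRSF13B (TACI) at 71.9 ± 6.05 TPM. The memory marker CD27, the receptor of CD70, stood at 1.78 ± 0.0710 TPM. CD44 had 11.7, 0 and 4.21 normalized counts.

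The plasma cell list was the stage list with the highest median, 120.0 TPM, and 14 of its 15 genes reached 1 TPM in all 3 libraries. JCHAIN, which links secreted IgM and IgA into polymers, led at 2737 ± 153 TPM (SD, n = 3) and ranked 53 of all genes. IRF4 stood at 146, 151 and 140.3 TPM, XBP1, the driver of the secretory programme, at 113, 102 and 100.4 TPM, and TNFRSF17 (BCMA) at 120.0 ± 17.1 TPM. SDC1, which encodes the plasma cell marker CD138, was measured at 44.6 ± 8.04 TPM. PRDM1, the repressor that ends the B cell programme, was lower at 12.9, 8.86 and 11.9 TPM, so that IRF4 was 13.4 ± 3.22 times its level (SD, n = 3). Several members of this list, such as SSR4, SEC11C and TXNDC5, serve protein secretion in many cell types. SLAMF7 had 0.533, 1.01 and 7.07 normalized counts.

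Among the genes measured, the main immunoglobulin transcripts were those of IgM with a lambda light chain. IGHM stood at 4005, 4474 and 4099 TPM and took 96.2%, 96.3% and 96.6% of the counts of 7 heavy chain constant genes. IGHG1 and IGHE were not analysed here and are outside this share. IGHD took nearly all of the rest (3.64% ± 0.215, SD, n = 3), and IGHM was 26.4 ± 1.67 times its level per length (SD, n = 3). IGHA1 had 17.6, 13.4 and 15.3 normalized counts. Lambda constant genes held 77.4%, 74.8% and 73.9% of light chain constant counts, and IGKC the remainder, at 1611, 1869 and 1894 TPM. This share covers IGLC1, IGLC2, IGLC3, IGLC7 and IGKC. IGLL5 (10918 normalized counts on average) and IGLL1 (22135), which may share reads with lambda constant genes, are outside it. IGLC1 stood at 4064 ± 38.5 and IGLC2 at 1613 ± 76.1 TPM, but the lambda constant genes are near-identical, and IGLL5 shares its last exon with IGLC1, so their division between genes is uncertain.

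A single variable gene dominated the light chain. IGLV1-51 had 32907, 37165 and 33730.1 normalized counts, and held 98.9% of the counts of the 13 lambda variable genes and pseudogenes measured. The kappa locus gave counts in IGKC (15628 on average) and in the joining segment IGKJ1 (640.3). The 10 kappa variable genes measured had 35.4 normalized counts in sum, and the highest, IGKV4-1, had 17.0 on average. Kappa constant transcript was thus present without a matching kappa variable transcript among the genes measured. The heavy chain variable gene with most counts was IGHV1OR16-1, an orphan copy outside the locus, with 2750.0, 3181 and 2983. It was followed by IGHV1-2 with 969, 1196 and 1311. Variable genes of 1 family share long stretches, so reads from a mutated rearranged gene can be assigned to a relative, and these 2 assignments are uncertain. IGHJ6 had 815, 913 and 0 normalized counts and was listed at 0 in replicate 3.

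Antigen presentation genes were uneven beside CD74. Of 18 measured, 14 had a length, and 12 of these reached 1 TPM in all 3 libraries. HLA-DRB1 stood at 148 ± 26.6 TPM, HLA-DQA1 at 103 ± 21.3, and the class II transactivator CIITA at 16.5 ± 1.53. HLA-DRA, the partner of HLA-DRB1, had only 24.1, 9.47 and 7.99 normalized counts. For class I, B2M stood at 1259 ± 133 TPM, whereas HLA-B had 4.48, 8.04 and 6.41 normalized counts. These genes are highly variable between people and exist as several haplotype copies with identifiers of their own in the annotation. The table keeps 1 row per symbol, so the levels of HLA genes are uncertain. The RNA polymerase II subunit POLR2A, which every cell needs, also had only 31.6, 35.1 and 29.5 normalized counts, so a low value in this table is not always a low transcript level.

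The genes that set the G1 checkpoint centred on CCND1 and CDK4. CCND1 was 60.2 ± 1.87 times CCND3 per length (SD, n = 3), which stood at 30.6, 29.8 and 29.1 TPM, and CCND2 had 0, 2.11 and 0 normalized counts. Of the cyclin D genes, only CCND1 was thus at a high level. CDK4 was measured at 445, 498 and 422 TPM and CDK6 at 2.77, 1.72 and 1.31 TPM, and CDK4 exceeded CDK6 by at least 160-fold in every library. The retinoblastoma gene RB1, the substrate of these kinases, stood at 196 ± 30.8 TPM and its partner E2F1 at 102 ± 7.28. Among the inhibitors, CDKN1A (p21) stood at 208 ± 21.7 and CDKN1B (p27) at 137.7 ± 7.31 TPM. CDKN2C was measured at 32.2 ± 3.02 and CDKN2D at 5.24 ± 0.238 TPM. CDKN2A and CDKN2B, which are often deleted in this lymphoma, were not analysed here.

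**Figure D3:**
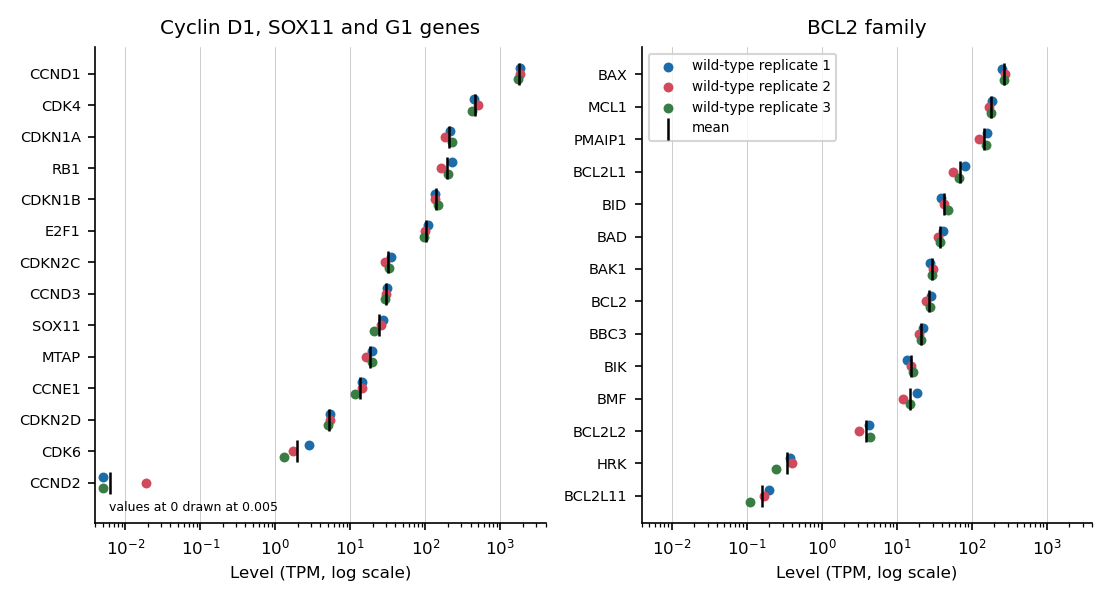
Levels of G1 genes with SOX11 (left) and of BCL2 family genes (right) in wild-type Z138 in TPM (log axis), 1 point per library and a bar at the mean. CCND1 lies far above CCND3 and CCND2, and BCL2L11 is the lowest BCL2 family gene.

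CCND1 was above every measured gene near it on the chromosome. At rank 88 of 16461 genes it would be above most genes anywhere. It lies on chromosome 11 from 69641087 to 69654474 (GRCh38, plus strand). Of the 10 protein-coding genes annotated on each side, 12 were measured and 8 were not analysed here. The 12 ranged from 0.281 to 164 TPM with a median of 12.4 TPM, and 10 reached 1 TPM. Its nearest measured neighbour on one side, LTO1, stood at 14.4 TPM, and FADD at 37.0 TPM. CCND1 was 10.9 times the highest of them, MRPL21, a mitochondrial ribosomal protein gene.

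The region of CDKN2A on chromosome 9, from 21967753 to 21995301, was read through its neighbours. Of the 10 protein-coding genes on each side, 7 were measured and 5 of these reached 1 TPM. MTAP, the adjacent gene that is commonly lost together with CDKN2A, was measured at 19.2, 16.3 and 19.4 TPM. On the same arm KLHL9 stood at 10.3 and PLAA at 33.9 TPM. The window is uneven, since the genes on the far side of CDKN2A lie farther apart.

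**Figure D4:**
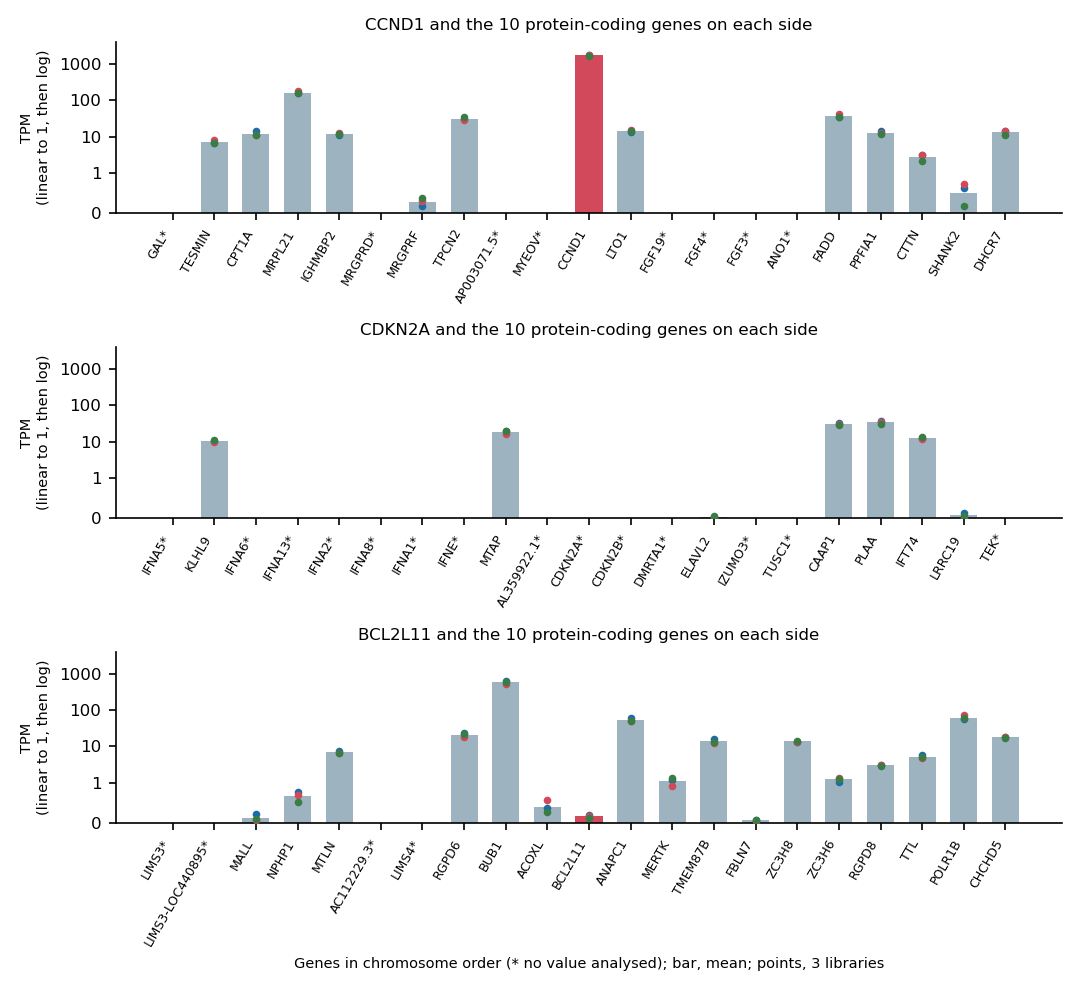
Levels in TPM (axis linear to 1, then log) of the protein-coding genes on either side of CCND1, CDKN2A and BCL2L11, in annotated order, with bars at the mean, 1 point per wild-type library and an asterisk at genes not analysed here. CCND1 at 1795 TPM exceeds every measured neighbour, and MTAP beside CDKN2A stands at 18.3 TPM.

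Of 23 genes that are recurrently mutated in mantle cell lymphoma, 22 reached 1 TPM and 18 reached 10 TPM in all 3 libraries, beside 65.6% and 44.3% of all genes. Their median was 35.7 TPM. The methyltransferase NSD2 stood at 92.1 ± 2.81 TPM. The chromatin remodeller SMARCA4 stood at 248 ± 17.8 and the histone methyltransferase KMT2D at 16.1 ± 1.78 TPM. ATM, the kinase of the response to DNA breaks and the most often mutated gene of this lymphoma, was lower at 7.22, 4.14 and 6.13 TPM. The receptor NOTCH1 stood at 30.9, 16.6 and 25 TPM, and the NF-kB regulators BIRC3 at 21.3, 20.8 and 34.2 and TRAF2 at 7.85 ± 0.832 TPM. TLR2 was the lowest at 0.170 ± 0.0961 TPM. These are transcript levels of the gene as a whole and do not show which allele was transcribed.

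Genes whose expression has been linked to mantle cell lymphoma or its aggressive forms were mostly above the median gene. Of 14, 13 reached 1 TPM and 10 reached 10 TPM in all 3 libraries. MYC, the growth regulator, was measured at 1663, 1512 and 1515 TPM, near the level of CCND1. STMN1, a regulator of microtubules, stood at 1262 ± 70.4 TPM and DBN1, a neuronal actin-binding protein, at 210.0 ± 22.7 TPM. The growth factor gene PDGFA stood at 87.8 ± 12.4, and ROR1, a surface receptor of mature B cell cancers, at 7.10 ± 0.728 TPM. PTK2, the focal adhesion kinase, was low at 0.119 ± 0.0299 TPM. All 13 proliferation genes reached 10 TPM in all 3 libraries and 11 reached 100 TPM. PCNA, the sliding clamp of replication, led at 919 ± 60.1 TPM, and MKI67, which encodes the Ki-67 antigen scored in this lymphoma, stood at 77.2 ± 7.08 TPM.

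In the BCL2 family, which decides between survival and apoptosis, the antiapoptotic MCL1 stood at 179 ± 8.16 TPM (SD, n = 3). BCL2, the target of venetoclax, was measured at 28.4, 24.2 and 27.5 TPM, and BCL2L1 (BCL-XL) at 68.8 ± 13 TPM. MCL1 was 6.72 ± 0.294 times BCL2 per length (SD, n = 3). Of the effectors, BAX stood at 266 ± 14.2 and BAK1 at 29.1 ± 1.36 TPM. PMAIP1 (NOXA) was the highest of the BH3-only genes at 145 ± 18.2 TPM, followed by BID at 43.1 ± 4.38. BCL2L11, which encodes the apoptosis trigger BIM, was the lowest of the 14 measured, at 0.199, 0.168 and 0.112 TPM or 4.91, 4.39 and 2.82 normalized counts.

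The surroundings of BCL2L11 were examined after its level had been seen. The gene lies on chromosome 2 from 111119378 to 111168447 (GRCh38, plus strand). Of the 10 protein-coding genes on each side, 16 were measured and 11 reached 1 TPM. BUB1, a mitotic checkpoint kinase, stood at 592 TPM and ANAPC1, a subunit of the anaphase-promoting complex, at 54.1 TPM. ACOXL, its immediate neighbour, stood at 0.396 TPM. The low value was thus not shared by all genes around it.

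Markers of other lineages were mostly low. Over 7 lists, 41 genes were measured, 7 were under the 3-read floor in each library, and 11 of the 40 with a length reached 1 TPM in all 3 libraries. Of the 12 T cell genes with a length, 4 reached 1 TPM in all 3 libraries, and the list summed to 36.4, 37.9 and 36.1 TPM. The kinase LCK gave most of this at 20.8 ± 1.35 TPM, and CD3G stood at 9.28, 6.32 and 9.65 TPM. The other CD3 chains were lower, and CD3E stood at 1.44 ± 0.0316 TPM and CD3D had 3.07, 2.73 and 4.75 normalized counts. CD8B, ZAP70 and TRBC1 were under the 3-read floor in each library. The myeloid genes summed to 2.44, 2.55 and 2.35 TPM, with CD14, CD33 and CSF1R under the floor in each library. Natural killer genes summed to 3.46, 3.31 and 3.87 TPM. Among stromal genes ACTA2 stood at 11.34 ± 3.59 and COL1A1 at 9.92 ± 1.79 TPM, and the list summed to 23.2, 21.6 and 26.1 TPM. Epithelial genes summed to at most 2.62 TPM and neuronal genes to at most 5.19 TPM in any library. The erythroid and platelet genes measured summed to 1.52, 2.25 and 1.81 TPM, and the haemoglobin gene HBA2 had 0, 17.6 and 7.99 normalized counts.

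A group of 60 genes was at the lowest value of the table in all 3 wild-type libraries, which is 0.362% of the genes. Of these, 37 were protein-coding and 20 were pseudogenes. Each of the 60 was above the lowest value in at least 1 of the other 6 libraries. Since every gene in the table was counted somewhere in the 9 libraries, with a lowest sum of 5.43 normalized counts, these 60 are not all the genes that the line lacks. Their highest values there were small, with a median of 6.48 normalized counts and a maximum of 40.9 for HOXC10. They included the glutamate receptor subunits GRIA1 and GRIA3, HOXC8, the tight junction gene CLDN5 and the complement receptor C3AR1, chosen after their values were seen. HSPA1B was also at the lowest value, but its near-identical copy HSPA1A can take its reads. A wider group of 907 genes (5.47%) stayed under 3 reads in every wild-type library, so that their absence and a level under the floor could not be told apart. Any pair of the libraries shared 163 to 187 genes at the lowest value. Another 341 genes were at the lowest value in exactly 2 libraries, and 1009 in exactly 1, of which only IGHJ6 had a mean of at least 100 normalized counts.

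The 3 libraries were close to one another. Across genes, log2(CPM + 1) correlated at 0.995 between replicates 1 and 2, 0.996 between 1 and 3 and 0.995 between 2 and 3 (Pearson's r, across genes, which are not independent replicates). Among 8638 genes with a mean of at least 10 CPM, the median coefficient of variation was 8.06%, and 92.4% of these genes varied by under 20%. The median was 7.53% without replicate 1, 5.16% without replicate 2 and 7.41% without replicate 3. Coefficients from 2 libraries are not directly comparable with those from 3. Replicate 2 was farthest from the mean in 46.6% of genes, replicate 1 in 26.6% and replicate 3 in 26.7%. The coefficient was smaller in genes at higher levels. Its median was 18.0% for genes at 1 to 10 CPM, 8.92% at 10 to 100 CPM and 6.20% at 100 CPM or more.

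Among the 10 genes with the largest coefficient were immediate early genes and regulators of G protein signalling. EGR1, an immediate early transcription factor, was measured at 231, 5.15 and 186 CPM, and FOS, another, at 23.1, 2.58 and 20.9 CPM, both lowest in replicate 2. RGS1 stood at 8.99, 40.4 and 11.8 CPM and RGS2 at 11.7, 34.9 and 13.7 CPM; both restrain G protein signalling and both were highest in replicate 2. DTX4, a ubiquitin ligase of the Notch pathway, stood at 8.06, 34.8 and 18.4 CPM. SMN1, which has the near-identical copy SMN2, stood at 6.24, 12.5 and 30.0 CPM and is uncertain for that reason. Of the 10 genes with the largest coefficient, replicate 2 was highest in 6 and lowest in 2. At the other end, IGLL5 and CASC3 were among the 5 steadiest, with CASC3 at a mean of 134 CPM and IGLL5 at 310.2 CPM.

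Promoter sequences were read for the 11793 protein-coding genes that matched by symbol a RefSeq promoter (GRCh38.p14, 250 bases before to 50 after the start). They were compared by the CpG ratio, the number of CG pairs over that expected from the C and G content. The promoters of 4 expressed genes are shown because they differ widely in this ratio, with each CG in capitals, 5′ to 3′ on the gene's own strand. PTMA (chr2:231708275-231708574, plus strand) has 33 CG pairs and a ratio of 1.07. PAX5 (chr9:37034219-37034518, minus strand) has 30 and 0.949. CD79A (chr19:41877029-41877328, plus strand) has 4 and 0.134, and JCHAIN (chr4:70666459-70666758, minus strand) has 0.
PTMA: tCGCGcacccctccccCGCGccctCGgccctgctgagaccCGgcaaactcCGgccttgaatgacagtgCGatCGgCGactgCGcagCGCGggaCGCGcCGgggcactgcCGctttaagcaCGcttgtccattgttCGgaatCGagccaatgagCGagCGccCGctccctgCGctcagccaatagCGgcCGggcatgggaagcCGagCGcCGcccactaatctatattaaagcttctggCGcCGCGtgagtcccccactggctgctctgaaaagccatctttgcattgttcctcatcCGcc
PAX5: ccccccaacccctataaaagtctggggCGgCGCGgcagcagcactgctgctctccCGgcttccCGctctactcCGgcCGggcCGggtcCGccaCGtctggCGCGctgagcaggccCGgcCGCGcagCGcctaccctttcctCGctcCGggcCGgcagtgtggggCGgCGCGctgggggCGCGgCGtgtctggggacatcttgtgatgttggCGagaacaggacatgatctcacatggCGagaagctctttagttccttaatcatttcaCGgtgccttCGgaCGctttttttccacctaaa
CD79A: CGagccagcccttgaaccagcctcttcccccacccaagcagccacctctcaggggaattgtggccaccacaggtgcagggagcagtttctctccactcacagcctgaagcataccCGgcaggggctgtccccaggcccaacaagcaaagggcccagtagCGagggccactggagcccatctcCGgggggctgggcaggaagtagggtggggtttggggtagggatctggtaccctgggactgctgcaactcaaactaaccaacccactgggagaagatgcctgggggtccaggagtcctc
JCHAIN: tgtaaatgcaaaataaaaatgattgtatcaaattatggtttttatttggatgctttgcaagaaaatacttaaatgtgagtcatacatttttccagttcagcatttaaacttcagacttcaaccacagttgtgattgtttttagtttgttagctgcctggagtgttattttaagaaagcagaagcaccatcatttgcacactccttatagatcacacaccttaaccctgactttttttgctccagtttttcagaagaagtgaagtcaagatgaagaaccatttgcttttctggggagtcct

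High level and CpG density did not go together in each gene shown, since JCHAIN at 2737 TPM has no CG pair while PAX5 at 75.2 TPM has a dense window. Over all matched genes, the ratio was higher in the classes of higher level. The median ratio was 0.555 for the 1323 genes under 0.1 TPM, 0.592 at 0.1 to 1 TPM, 0.81 at 1 to 10 TPM, 0.868 at 10 to 100 TPM and 0.885 for the 1280 genes at 100 TPM or more. A ratio of at least 0.6 was found in 76.1% of the matched genes and in 49.0% of all 27303 promoters of the reference. It was found in 47.2% of the genes under 0.1 TPM and in 91.0% of those at 100 TPM or more. Of the B cell surface genes with a promoter in the reference, 2 of 13 reached a ratio of 0.6, and their median was 0.207. The T cell list (0 of 8), natural killer list (0 of 8) and myeloid list (0 of 9) were low as well. The natural killer and myeloid counts include genes without a level here, since only 5 and 7 of those lists were measured. They are to be read against the 49.0% of all promoters. Among B cell transcription factors 11 of 19 reached a ratio of 0.6, below the share of all matched genes. Their median of 0.949 was nevertheless above the 0.816 of all matched genes. Among proliferation genes 10 of 10 reached a ratio of 0.6. A CG count describes these letters only and shows neither methylation nor binding.

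**Figure D5:**
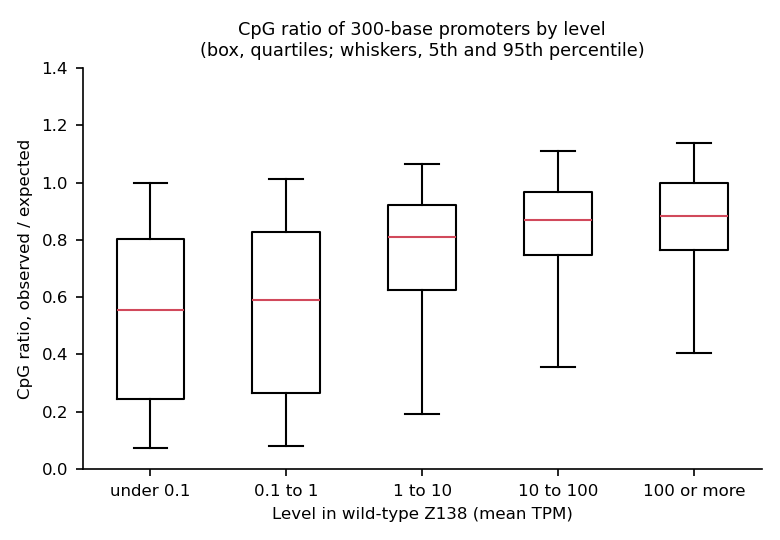
CpG ratio of 300-base promoters for protein-coding genes grouped by mean TPM in wild-type Z138, with boxes at the quartiles, a line at the median and whiskers at the 5th and 95th percentile. The median runs from 0.555 under 0.1 TPM to 0.885 at 100 TPM or more.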

How the data were processed

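The 3 wild-type Z138 RNA-seq libraries were described without a test. Per the submitters' processing notes, kallisto 0.46.1 and DESeq2 1.24.0 (in R 4.3.2) are named beside the build GRCh38.p13, with Trimmomatic 0.40 and FastQC 0.11.9. Libraries were sequenced as 50-base paired or single ends on an Illumina NextSeq, per the labels' protocols. The deposited table holds log2 values of 16586 genes. They are not log2 CPM, which the design had assumed. The minimum is 8.5985 in each library, and the antilogarithms add up to 44682320 to 45655063, far above the total of CPM. A variance-stabilized scale was therefore assumed, although these facts do not single out that transform. Normalized counts were computed by undoing the assumed transform, with the antilogarithm of the minimum (388) as constant. CPM is each gene's share of them.

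One read was worth 0.859, 1.05 and 0.999 normalized counts in the 3 libraries. Of low values of genes with 1 transcript, 81.9%, 94.6% and 84.3% were whole numbers of reads to within 0.05. The step was fitted to make this share largest. Evenly spread values would give 10% only with a step fixed beforehand, so 10% is not the level for a fitted step. The depths given are totals divided by this step and are estimates. kallisto divides reads between transcripts, so single genes need not hold whole reads.

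Normalized counts were divided by the length of the principal transcript (APPRIS, the longest of these, otherwise the longest transcript) in GENCODE release 29, which matched 16461 genes by identifier. The 125 others held 0.0559% of counts and have no TPM. Lists were summarised by the median of mean log2(TPM + 1). The inversion was run on simulated counts for 16586 genes in 3 libraries. These were put through the same assumed transform, so their recovery checks the computation only. It cannot show that the deposited values were made with that transform. Python 3.11.15, numpy 2.4.6, pandas 2.3.3 and matplotlib 3.10.9 were used.

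The members and the 24 gene lists were chosen with earlier results of these data known. Genes were named by rule: list members, the 25 highest per length, the 10 highest by reads, the 10 most and 5 least variable at 10 CPM or more, 10 neighbours on each side of CCND1 and CDKN2A, and the 5 variable genes with most reads. The BCL2L11 neighbours and the genes named as being at the lowest value lie outside it. The alternatives were other lengths, thresholds, pseudocounts, a simple back-transform (2 to the value less 2 to the lowest value) and leaving out each library. Some members of the lists, though counted in them, are not reported here by name.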

Additional observations from a re-analysis of the deposited data

How the results depend on the processing

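No paired analysis was possible because the results come from no test and within wild type each replicate number occurs once. Ranks of the 4 markers ranged over all alternatives from 45 to 89 for CCND1, 224 to 352 for CD79A, 1346 to 2427 for PAX5 and 3713 to 5638 for SOX11. With the union of exons as length, CCND1 stood at 2762, SOX11 at 42.2, PAX5 at 119.8 and CD79A at 618 TPM. With the longest transcript, CCND1 stood at 2196, SOX11 at 29.9 and CD79A at 524 TPM. With a simple back-transform, CCND1 stood at 1656 TPM, the 25 highest genes held 14.6% and IGHM 95.9% of heavy chain counts. That back-transform raised low genes most: the median log2(TPM + 1) went from 3.12 to 3.64 for all genes, from 0.18 to 1.16 for the precursor list, from 0.42 to 1.56 for the T cell list and from 0.11 to 0.77 for the myeloid list, and genes at 1 CPM or more from 11007 to 13338. Without length scaling the 25 highest held 10.3%, and with it lambda constant genes held 77.6% of light chain counts. The 60 genes at the lowest value became 907 under 3 reads, 1254 under 0.1 CPM, and 163 to 187 when 1 library was left out. The median coefficient of variation was 9.53% for genes at 1 CPM or more, and 5.16% to 7.53% when 1 library was left out, lowest without replicate 2. Of the 24 lists, 14 had a median above that of all genes. The precursor and the naive and mantle zone lists changed side when only genes at 1 CPM or more were kept, and the list of nuclear and non-polyadenylated RNAs, of which only histones were measured, did so without replicate 3; no other list did under the alternatives run.
Depth limits what can be said of genes under 3 reads, and 3 libraries of unstated origin limit every SD.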
